A study of Mus musculus with 8 samples.

Results

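The 39 Hox genes of the mouse were examined in medial knee cartilage after destabilisation of the medial meniscus (DMM). They were chosen by symbol alone, as every gene whose symbol is Hox followed by a cluster letter from a to d and a number, and all 39 were present among the 50462 gene identifiers of the table. Each of the 8 libraries came from 1 wild-type male C57BL/6J mouse, with 4 mice per group. Naïve mice had no surgery and were taken at day 0, at 11 weeks of age. DMM mice had the ligament that holds the medial meniscus to the tibia cut in the left knee and were taken at day 42, at 17 weeks of age. No sham-operated mice were analysed here, so surgery and the difference in age cannot be told apart.

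Hox genes encode homeodomain transcription factors and lie in 4 clusters, named A to D. Genes at the same place in different clusters form a paralog group, numbered from 1 at the 3′ end to 13 at the 5′ end. In the limb, the 5′ groups pattern the skeleton from proximal to distal, with group 10 known for the femur, group 11 for the lower leg and group 13 for the digits. Adult mesenchymal cells keep part of the Hox code of the place they came from. In blood, Hoxa9, Hoxa10 and Hoxb4 are known regulators of stem and progenitor cells, and their levels fall as blood cells mature.

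On GRCm38, cluster A (11 genes) lies at chr6:52155590-52260880, cluster B (10 genes) at chr11:96194316-96368256, cluster C (9 genes) at chr15:102921103-103036852 and cluster D (9 genes) at chr2:74668310-74765142. RefSeq sequences on GRCm38.p6 were matched by symbol for 24 promoters of 22 Hox genes. The 250 bases before the transcription start are printed for 3 genes that were upregulated in DMM cartilage, because they show how different the promoters of these members were. Capitals mark 6 motifs, none overlapping another in these windows, that were searched on both strands: the CCAAT box, the TATA box (TATAAA), a Hox and Cdx core (TTTATG), the Meis core (TGACAG), the Pbx and Hox composite (TGATNNAT) and the nuclear receptor core (AGGTCA). The Hoxa10 window is chr6:52234940-52235189 on the minus strand, the Hoxd8 window chr2:74704365-74704614 on the plus strand and the Hoxd4 window chr2:74721728-74721977 on the plus strand.
Hoxa10 promoter: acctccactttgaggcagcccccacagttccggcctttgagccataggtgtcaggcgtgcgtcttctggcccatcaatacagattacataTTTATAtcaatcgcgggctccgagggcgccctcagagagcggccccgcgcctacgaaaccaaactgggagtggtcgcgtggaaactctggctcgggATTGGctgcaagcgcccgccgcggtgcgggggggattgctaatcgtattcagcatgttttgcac
Hoxd8 promoter: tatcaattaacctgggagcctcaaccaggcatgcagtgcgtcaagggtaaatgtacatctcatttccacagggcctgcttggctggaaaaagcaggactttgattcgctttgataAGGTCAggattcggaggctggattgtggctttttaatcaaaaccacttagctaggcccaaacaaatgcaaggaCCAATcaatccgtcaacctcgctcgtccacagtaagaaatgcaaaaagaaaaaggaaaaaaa
Hoxd4 promoter: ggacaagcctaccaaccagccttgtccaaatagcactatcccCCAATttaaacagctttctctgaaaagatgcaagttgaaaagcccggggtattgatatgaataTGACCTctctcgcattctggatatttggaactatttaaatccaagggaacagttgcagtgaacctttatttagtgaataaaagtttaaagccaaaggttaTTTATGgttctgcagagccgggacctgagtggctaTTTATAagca

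The Hoxa10 window held 20 CpG dinucleotides, the Hoxd8 window 6 and the Hoxd4 window 3. The median was 12.5 over the 24 Hox promoters and 6 over the 32851 promoters of all genes. CCAAT, which NF-Y binds, was in all 3 windows, in 14 of 24 Hox promoters and in 33.8% of all promoters. AGGTCA, bound by receptors that include those for retinoic acid, was in the Hoxd8 and Hoxd4 windows, in 6 of 24 Hox promoters and in 14% of all promoters. TATAAA was in the Hoxa10 and Hoxd4 windows and in 12.4% of all promoters, and TTTATG was in the Hoxd4 window and in 10.8%. TGACAG was in 15.9% and TGATNNAT in 7.68% of all promoters, and neither was in these windows. The second Hoxa10 promoter and the Hoxa9 promoter held none of the 6 motifs. Hoxc6 and Hoxc10 had no entry.

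The clusters also carry microRNA genes that lie between Hox genes or inside their spans, and some of their mature products are known to target Hox transcripts. Their 5p sequences are shown to place the hosts of these microRNAs beside the Hox genes described below, with the seed (bases 2 to 8) in capitals.
mmu-miR-10a-5p: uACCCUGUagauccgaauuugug
mmu-miR-10b-5p: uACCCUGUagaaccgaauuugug
mmu-miR-196a-5p: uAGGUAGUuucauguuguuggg
mmu-miR-196b-5p: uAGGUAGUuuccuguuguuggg

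The miR-10 pair shared 1 seed and the miR-196 pair another. The miR-10a-5p sequence is at chr11:96317186-96317208, just before Hoxb4, and miR-10b-5p is at chr2:74726074-74726096, inside the span of Hoxd4. The miR-196b-5p sequence is at chr6:52230129-52230150 on the minus strand, inside the span of Hoxa9. The miR-196a-5p sequence has copies in cluster B at chr11:96265187-96265208 and in cluster C at chr15:102973365-102973386. The latter is between Hoxc10 and Hoxc9 and inside the span of Hoxc5. Mature microRNAs were not measured in these libraries, and all 6 microRNA hairpins of the clusters had 0 counts in every library.

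Total estimated counts were 12627770 to 16230518 in naïve and 12479443 to 16548002 in DMM libraries. The labels name cartilage and chondrocytes. Chondrocyte markers were present, with Col2a1 (type II collagen) at 23979 ± 9798 normalised counts in naïve and 63821 ± 27070 in DMM libraries (SD, n = 4), although Matn1 was at 5.24 and 0.889. Markers of marrow and bone were abundant beside them. In the synovial list, Col1a2, Prg4 and Col3a1 were abundant. Its other members had mean normalised counts of 52.2 (Pdpn) to 1400 (Pdgfra) in naïve libraries. The 15 neutrophil lineage markers held 0.949 to 1.33% of counts in naïve libraries, more than the 12 chondrocyte markers at 0.298 to 0.434%. In bulk libraries, fewer cells of a type and less RNA per cell cannot be told apart.

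Hox transcripts were rare. Together they made up 0.00721 to 0.0134% of counts in naïve and 0.0132 to 0.0163% in DMM libraries. Naïve replicates 3 and 4, at 0.0125 and 0.0134%, stood above naïve replicates 1 and 2, at 0.00805 and 0.00721%. Between 18 and 24 members reached 10 estimated counts in a naïve library and between 25 and 30 in a DMM library. A count of 0 allows up to 3 counts, which is 0.181 to 0.24 CPM (counts scaled to the library total) depending on the library, for counting error only.

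To compare members with each other, levels were expressed as CPM per kilobase of the gene's exons, averaged over the 8 libraries. Hoxc9, a thoracic and flank patterning gene, was the most abundant at 9.33, followed by Hoxc10 at 6.07, Hoxc6 at 3.49, Hoxa10 at 3.43, Hoxc8 at 2.52, Hoxd8 at 2.48 and Hoxa7 at 2.19. Hoxc9 led at 10.7 ± 4.43 in naïve libraries (SD, n = 4), whereas in DMM libraries Hoxc10 at 8.49 ± 0.436 and Hoxc9 at 7.94 ± 2.59 did not differ beyond their spread. Hoxc6 and Hoxa10 were also within their spread of each other in both groups. With the median transcript length in place of all exons, Hoxc9 was again the highest at 15.1, followed by Hoxc6 at 9.37, Hoxa9 at 8.75, Hoxa7 at 7.82, Hoxa10 at 7.13 and Hoxc10 at 6.07, so the order below Hoxc9 depends on the length used. Cluster C therefore held the most abundant member by either length.

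**Figure D1:**
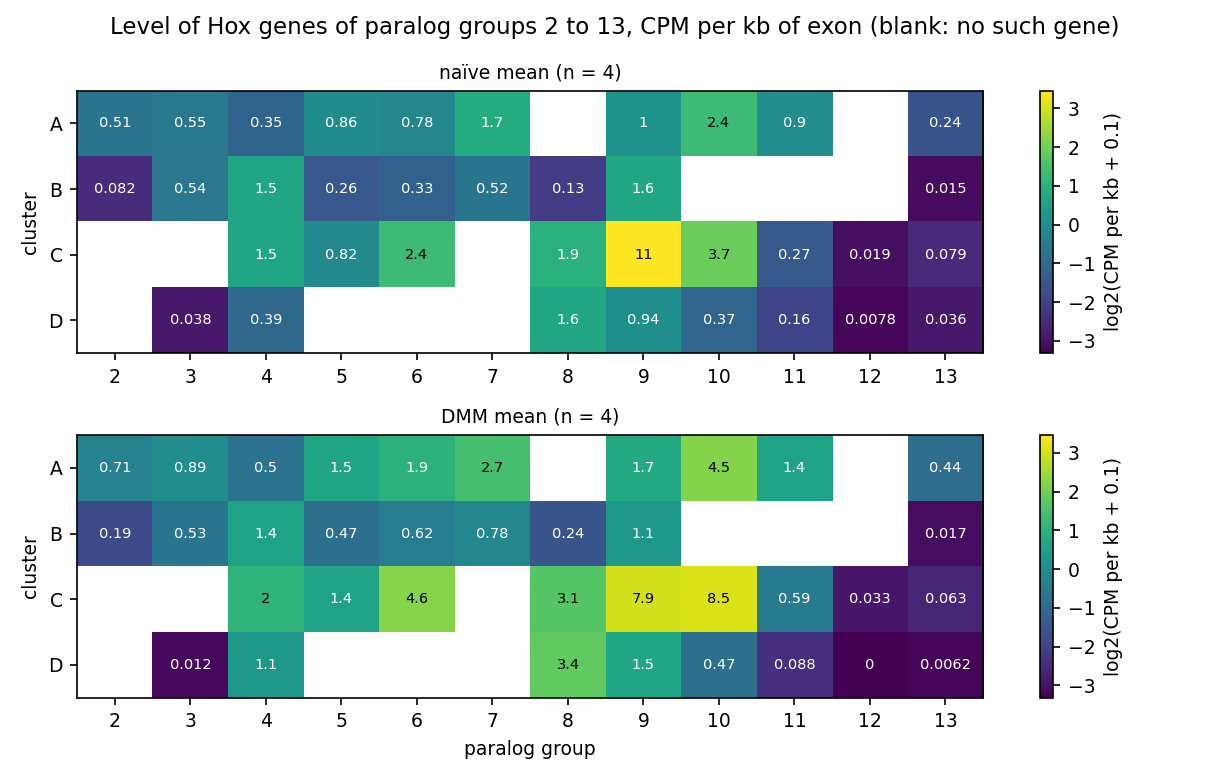
Mean level of the Hox genes of paralog groups 2 to 13 in naïve (top) and DMM (bottom) libraries, in CPM per kilobase of exon, with paralog group on the x axis, cluster on the y axis and colour on a log2 scale (pseudocount 0.1). The brightest naïve cell is Hoxc9 at 10.7, DMM libraries have Hoxc10 at 8.49 beside it, and the 5′ end of cluster D is dark in both.

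The members at the far 5′ end were close to absent. Hoxd12 had 1 count in all naïve libraries together and 0 in DMM libraries, Hoxd13 had 5 and 1, Hoxc12 had 1 and 2, and Hoxb13 had 2 and 2. Of the group 13 genes, Hoxa13 was the most abundant with 5.35 to 11.4 normalised counts in naïve and 8.12 to 20.6 in DMM libraries, and its groups overlapped. Hoxd1 and Hoxd3, at the 3′ end of cluster D, were equally sparse with at most 3 and 5.58 estimated counts in a library. In all, 15 members had a mean normalised count below 12.02, the level under which DESeq2 sets no adjusted P. Among them were Hoxb8, Hoxb13, Hoxc11, Hoxc12, Hoxc13, Hoxd10, Hoxd11, Hoxd12 and Hoxd13. Hoxc11 fell just under it at 11.96 and Hoxb1 just above it at 12.9. The other 24 members were tested.

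DMM libraries were compared with naïve libraries, a contrast that holds both surgery and age. The test was the DESeq2 Wald test, and a gene was called when its adjusted P was at most 0.05 and it changed at least 1.5-fold. Hoxa9, Hoxa10, Hoxc6, Hoxc10, Hoxd4 and Hoxd8 were upregulated in DMM cartilage by 1.53-fold to 2.71-fold. They were 6 of the 24 members tested (25%), against 7.75% of all 17760 genes tested. No Hox gene was downregulated, against 5.92% of all genes, and 1 member, Hoxc9, was lower at an unadjusted P under 0.05. The count of Hox genes called lower was also 0 with edgeR and limma-voom. The log2 fold change was above 0 in 19 of 24 members, with a median of 0.55 against -0.02 over all genes. In 5 tested members every DMM library was above every naïve library, against 11.9% of all genes tested, and in 0 every DMM library was below every naïve library, against 10.3% of all genes. Without naïve replicate 1, naïve replicate 2 or DMM replicate 1, 3 members were called higher (Hoxa10, Hoxc10 and Hoxd8). Scaling by the total count moved the median log2 fold change of all genes to 0.14 and the calls over the table from 1377 higher and 1052 lower to 2030 and 489, and 9 Hox genes were then called higher and 0 lower.

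**Figure D2:**
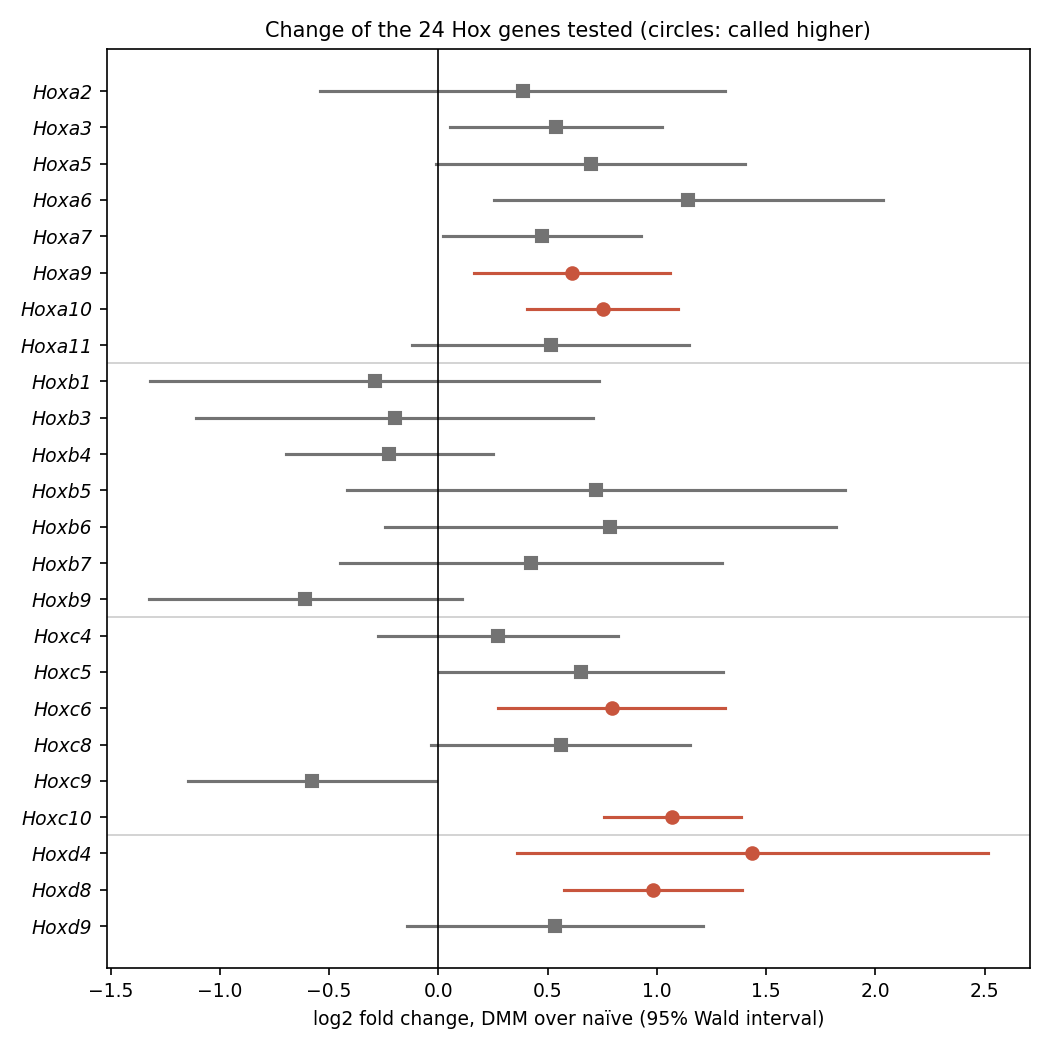
Log2 fold change of DMM over naïve for the 24 Hox genes tested (n = 4 libraries per group), ordered by cluster (grey lines divide A, B, C and D from top to bottom) and paralog group, with 95% intervals. Red circles are the 6 genes called higher, at 0.61 to 1.44, and grey squares are genes not called, of which 5 lie below 0.

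Hoxc10, a group 10 gene of the hindlimb at chr15:102966796-102971893, had the smallest adjusted P of the family. Its normalised counts were 91.5, 90.5, 120.9 and 111.1 in naïve replicates 1 to 4 and 214.8, 203.2, 232.1 and 218.4 in DMM replicates 1 to 4. All DMM libraries were above all naïve libraries, and the spread was small in both groups. The log2 fold change was 1.07 ± 0.16 (SE, adjusted P = 4.59e-09). Hoxc10 stayed called in all 8 fits that left out 1 library, at 1.01 to 1.15, and in all 7 other settings. Of the 31-base words of its transcripts, 7.34% occurred in Hoxc5, whose span overlaps that of Hoxc10.

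Hoxd8, at chr2:74704615-74707933, had 53.6, 58.5, 65.3 and 77.1 normalised counts in naïve replicates 1 to 4 and 121.1, 113.9, 153.1 and 112.8 in DMM replicates 1 to 4. The groups did not overlap, with the highest naïve library well below the lowest DMM library. Hoxd8 rose by 0.98 ± 0.21 on the log2 scale (SE, adjusted P = 6.15e-05), and it stayed called in all 8 fits that left out 1 library and in all 7 other settings. The antisense gene Hoxd3os1, at chr2:74703248-74716130 on the other strand, covers Hoxd8. It had 13.2 to 18.6 normalised counts in naïve and 21.7 to 38.7 in DMM libraries, with a log2 fold change of 0.89 ± 0.37 that was not called (adjusted P = 0.0617). Of the 31-base words of Hoxd8 transcripts, 0.073% occurred in another gene on either strand, and no source states whether strand was used in counting.

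Hoxa10, at chr6:52231197-52240854, acts in femur patterning and in blood progenitors. Its normalised counts were 113.4, 85.1, 128.4 and 136.1 in naïve replicates 1 to 4 and 214.8, 181.7, 200.9 and 184.1 in DMM replicates 1 to 4. Every DMM library was above every naïve library. Hoxa10 rose by 0.75 ± 0.18 on the log2 scale (SE, adjusted P = 3.43e-04), and it too was called in all 8 fits without a library and in all 7 other settings. No 31-base word of its transcripts occurred in another gene.

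Hoxc6, at chr15:102998257-103011881, is a mid-cluster gene of the thoracic region. It had 58.9, 61.2, 98.5 and 122.5 normalised counts in naïve and 192.4, 132.2, 123.5 and 141.7 in DMM replicates 1 to 4. The groups did not overlap, but naïve replicate 4 lay just below DMM replicate 3. Hoxc6 rose by 0.79 ± 0.26 on the log2 scale (SE, adjusted P = 0.0170). The call was lost without naïve replicate 1 (adjusted P = 0.0853), without naïve replicate 2 (adjusted P = 0.0737) and without DMM replicate 1 (adjusted P = 0.111), and with edgeR (adjusted P = 0.0520).

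Hoxa9, the neighbour of Hoxa10 at chr6:52223100-52231089, is the Hox gene best known from myeloid progenitors and leukaemia. It had 59.8, 67.8, 86.7 and 114.5 normalised counts in naïve and 122.7, 124.7, 144.9 and 109.2 in DMM replicates 1 to 4. The groups overlapped, because naïve replicate 4 was above DMM replicate 4. Hoxa9 rose by 0.61 ± 0.23 on the log2 scale (SE, adjusted P = 0.0370). The call held in 2 of 8 fits that left out 1 library, those without naïve replicate 4 and without DMM replicate 4, and in the other 6 the adjusted P was 0.0759 (without naïve replicate 3) to 0.164 (without naïve replicate 1). It was also lost with edgeR (adjusted P = 0.0655), without DESeq2's independent and Cook's filters (adjusted P = 0.0715) and with the replicate number as a block (adjusted P = 0.0915).

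Hoxd4, at chr2:74711929-74729160, had the largest log2 fold change of the 6 called members and the largest SE among them. Its normalised counts were 10.6, 3.99, 9.63 and 42.0 in naïve and 63.0, 32.2, 49.4 and 34.3 in DMM replicates 1 to 4. Naïve replicate 4 was above DMM replicates 2 and 4, so the groups overlapped, while the other 3 naïve libraries were below every DMM library. The log2 fold change was 1.44 ± 0.55 (SE, adjusted P = 0.0418). It was called in 1 of 8 fits that left out 1 library, the fit without naïve replicate 4, where it was 2.43, and in the other 7 the adjusted P was 0.0502 (without DMM replicate 4) to 0.181 (without DMM replicate 1). With edgeR the adjusted P was 0.0904, and without DESeq2's independent and Cook's filters it was 0.0809. Of the 31-base words of Hoxd4 transcripts, 49.1% occurred in another gene and 36.9% in the read-through gene Gm28230, so its counts are uncertain.

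**Figure D3:**
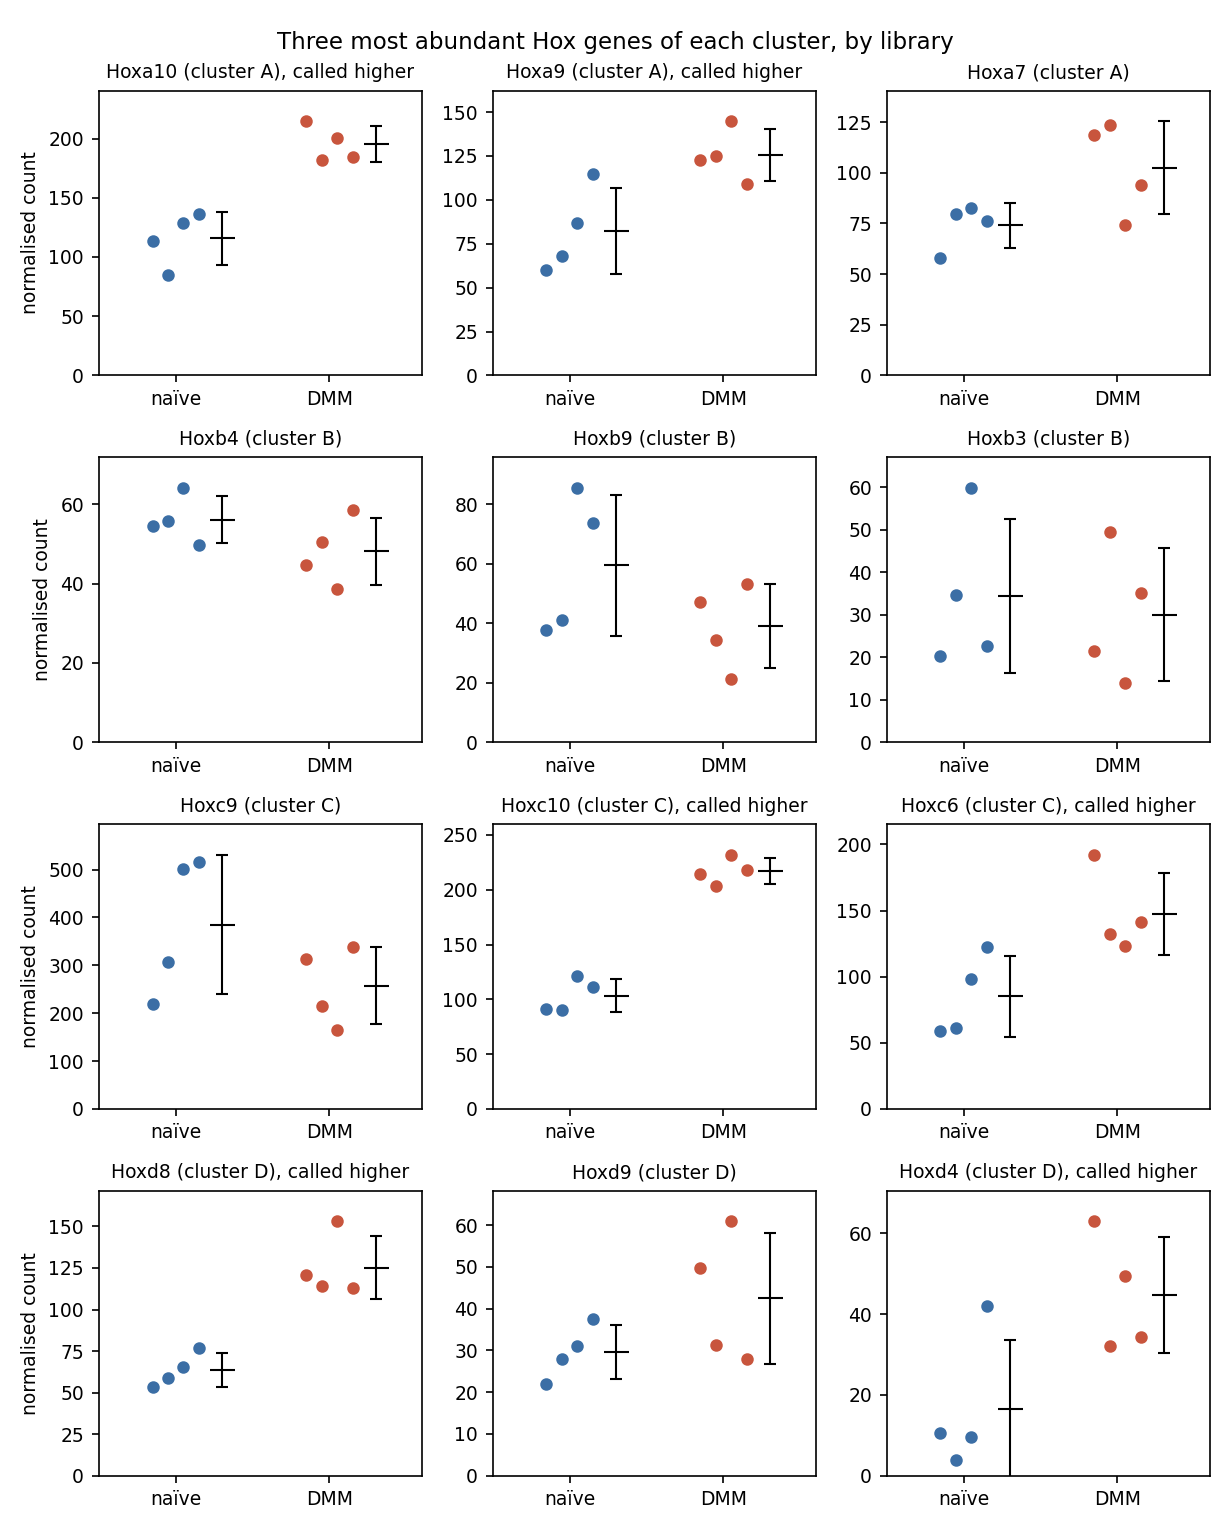
Normalised counts (y axis, each starting at 0) of the 3 Hox genes with the highest mean in each cluster, by library, with naïve libraries in blue and DMM libraries in red (4 each) and the mean ± SD in black. Hoxc10, Hoxd8, Hoxa10 and Hoxc6 separate the groups, Hoxa9 and Hoxd4 overlap, and Hoxc9 and Hoxb9 have their highest values in naïve libraries. The lower SD bar of naïve Hoxd4 runs below 0 and is not drawn there.

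In cluster A, 2 of 8 tested members were called higher (25%, against 7.75% of all genes). The log2 fold change was above 0 in all 8, with a median of 0.58. The sum of its 11 genes was 379, 347, 453 and 500 normalised counts in naïve replicates 1 to 4 and 721, 668, 613 and 594 in DMM replicates 1 to 4, so the groups did not overlap. Hoxa6 had 12.3, 10.6, 10.7 and 6.8 normalised counts in naïve and 21.6, 35.5, 16.5 and 17.1 in DMM libraries. Its groups did not overlap, but its log2 fold change of 1.144 ± 0.454 missed the threshold (adjusted P = 0.0514), which it passed with edgeR (adjusted P = 0.0426) and with TMM factors (adjusted P = 0.0441). Hoxa7 had 58.0, 79.8, 82.4 and 76.0 normalised counts in naïve and 118.6, 123.6, 74.1 and 93.9 in DMM libraries, with overlapping groups and a log2 fold change of 0.47 (adjusted P = 0.131). Without DMM replicate 3 it was called at 0.60 (adjusted P = 0.0432), and 19.4% of its 31-base words were shared with the antisense gene Hoxaas3. Hoxa3 (0.54, adjusted P = 0.102), Hoxa5 (0.70, adjusted P = 0.159), Hoxa11 (0.51, adjusted P = 0.271) and Hoxa2 (0.39, adjusted P = 0.633) were not called.

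The difference between cluster A and cluster B was not tested. In cluster B, none of the 7 tested members was called with DESeq2, edgeR or limma-voom. Over all genes tested, DESeq2 called 7.75% higher and 5.92% lower. Of the 7 members, 0 had an unadjusted P under 0.05, 3 had a log2 fold change above 0 and the median was -0.20. The sums of its 10 genes were 157, 181, 270 and 215 normalised counts in naïve and 190, 223, 137 and 234 in DMM replicates 1 to 4, and overlapped throughout. Hoxb4, known for the expansion of blood stem cells, had 54.5, 55.9, 64.2 and 49.9 normalised counts in naïve and 44.8, 50.5, 38.7 and 58.7 in DMM libraries. The groups overlapped, and the log2 fold change was -0.22, with a 95% interval from -0.70 to 0.25. Hoxb9 had 37.8, 41.2, 85.6 and 73.7 in naïve and 47.3, 34.4, 21.4 and 53.2 in DMM libraries (log2 fold change -0.61, adjusted P = 0.243). Hoxb3 ranged from 20.2 to 59.9 in naïve and from 13.99 to 49.4 in DMM libraries, with a log2 fold change of -0.20 (adjusted P = 0.819) that turned to 0.22 without naïve replicate 3 and 0.04 without DMM replicate 3, and 52.1% of its 31-base words were shared with its antisense gene Hoxb3os. Hoxb5 (0.72), Hoxb6 (0.79), Hoxb7 (0.43) and Hoxb1 (-0.29) had adjusted P of 0.307 to 0.762.

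In cluster C, 2 of 6 tested members were called higher (Hoxc6 and Hoxc10, 33.3%, against 7.75% of all genes). The most abundant member, Hoxc9, which was not called, had 219.0, 306.0, 500.9 and 514.8 normalised counts in naïve and 312.6, 215.0, 165.5 and 337.5 in DMM replicates 1 to 4. Naïve replicates 3 and 4 were above all other libraries, but the groups overlapped. The log2 fold change was -0.58 ± 0.29 (SE, adjusted P = 0.141), and without naïve replicate 1 Hoxc9 was called lower at -0.77 (adjusted P = 0.0302). The ratio of Hoxc10 to the adjacent Hoxc9, a pair singled out after its values were seen, was 0.418, 0.296, 0.241 and 0.216 in naïve and 0.687, 0.945, 1.40 and 0.647 in DMM replicates 1 to 4. It did not overlap between the groups, and it was not tested. Other adjacent pairs overlapped. The ratio of Hoxa10 to Hoxa9 was 1.19 to 1.90 in naïve and 1.39 to 1.75 in DMM libraries. The ratio of Hoxd8 to Hoxd9 was 2.06 to 2.44 in naïve and 2.43 to 4.03 in DMM libraries. Hoxc8, whose overexpression is known to delay cartilage maturation, had a log2 fold change of 0.56 (adjusted P = 0.184) and was called without naïve replicate 4 at 0.87 (adjusted P = 0.0123). The other tested members had 0.65 for Hoxc5 (adjusted P = 0.151) and 0.27 for Hoxc4 (adjusted P = 0.551). The cluster sums were 504, 573, 939 and 1023 in naïve and 1023, 786, 755 and 981 in DMM libraries and overlapped.

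In cluster D, 3 of 9 members were tested, all with a log2 fold change above 0, and 2 were called higher (Hoxd4 and Hoxd8, 66.7%, against 7.75% of all genes). Hoxd4 was called in only 1 of 8 fits that left out 1 library, and 49.1% of its 31-base words occurred in another gene. Hoxd9 had 22.0, 27.9, 31.04 and 37.4 normalised counts in naïve and 49.8, 31.2, 60.9 and 28.0 in DMM libraries, with overlapping groups and a log2 fold change of 0.53 (adjusted P = 0.287). The cluster sums were 107, 109, 127 and 190.5 in naïve and 250.4, 190.3, 290 and 189.5 in DMM libraries. Naïve replicate 4 was level with DMM replicates 2 and 4, and the other naïve libraries were below every DMM library. Mean sums in DMM over naïve were 1.72 in cluster D, 1.55 in cluster A, 1.17 in cluster C and 0.952 in cluster B.

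**Figure D4:**
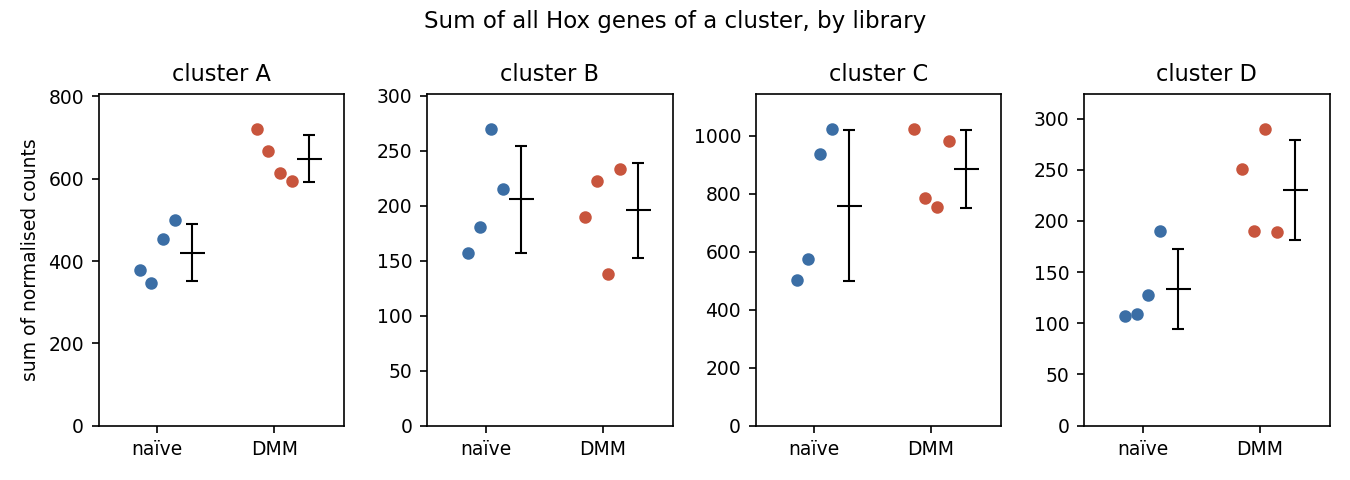
Sum of the normalised counts of all Hox genes of a cluster (y axis, each starting at 0) in 4 naïve (blue) and 4 DMM (red) libraries, with the mean ± SD in black. Cluster A separates the groups (347 to 500 against 594 to 721), cluster D nearly does, and clusters B and C overlap.

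By position in the cluster, 1 of 7 tested members of paralog groups 1 to 4 was called, 2 of 10 in groups 5 to 8 and 3 of 7 in groups 9 to 13. The share called higher over all genes tested was 7.75%, and the difference between these groups was not tested. All 10 tested members of groups 5 to 8 had a log2 fold change above 0, with a median of 0.71, against 4 of 7 (median 0.27) in groups 1 to 4 and 5 of 7 (median 0.53) in groups 9 to 13. Group 9 was split, with Hoxa9 called higher, Hoxd9 at 0.53, Hoxc9 at -0.58 and Hoxb9 at -0.61. Both tested genes of group 10, Hoxa10 and Hoxc10, were called higher, whereas the untested Hoxd10 had 7.94 to 12.8 normalised counts in naïve and 9.12 to 15.6 in DMM libraries.

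Other genes inside the clusters or within 100 kb of them were mostly sparse. There were 53 such genes, of which 10 were tested. None was called higher, against 7.75% of all genes tested, 1 was higher at an unadjusted P under 0.05, and the median log2 fold change was -0.13. With edgeR and with limma-voom 1 was called higher, Hoxd3os1. With DESeq2, 1 of the 10 was called lower, against 5.92% of all genes tested, and 2 were lower at an unadjusted P under 0.05. The gene called was the flanking long non-coding RNA Gm28265 at chr15:103102284-103104602, downregulated by 2.59 ± 0.75 on the log2 scale (adjusted P = 0.00469). Among non-coding transcripts of cluster A, log2 fold changes were 0.16 for Hoxaas2, 0.38 for Hoxaas3 and 0.04 for Hoxa11os (adjusted P = 0.603 to 0.969), and none was called. Hoxaas2, Hoxaas3 and Hoxa11os were chosen after their values were seen.

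The proteins that bind DNA together with Hox proteins, the TALE homeodomain cofactors, were mostly not called, beside 7.75% of all genes called higher and 5.92% lower. Of 9 tested, Meis3 was upregulated, from 63.8 ± 3.27 to 101 ± 20.8 normalised counts (SD, n = 4, log2 fold change 0.67 ± 0.22, adjusted P = 0.0134), none was called lower, 2 were lower at an unadjusted P under 0.05, and the median was -0.15. Meis3 was not called without naïve replicate 1 or without DMM replicate 1, where 0 of the 9 were. The count of genes called lower was also 0 with edgeR and limma-voom. Meis1, the partner of Hoxa9 in myeloid cells, was at 191 ± 26.5 and 151 ± 9.59 (log2 fold change -0.34, adjusted P = 0.101). Meis1 was singled out after its values were seen.

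Of 36 other transcription factors of limb and joint patterning, 27 were tested and 15 of these were upregulated and none was downregulated with DESeq2. Over all genes tested, DESeq2 called 7.75% higher and 5.92% lower. Of the 27, 0 were lower at an unadjusted P under 0.05, 0 were called lower by edgeR or limma-voom, and the median log2 fold change was 0.81. Irx5 went from 169 ± 43.4 to 433 ± 63.2 normalised counts (log2 fold change 1.36, adjusted P = 9.42e-10). Gli3, the hedgehog-pathway factor that patterns the digits, rose by 0.91 (adjusted P = 9.04e-07), Twist1, a mesenchymal factor of the limb bud, by 1.22 (adjusted P = 1.11e-06) and Osr2, a factor of joint formation, by 1.62 (adjusted P = 3.22e-05).

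Of 25 transcription factors of blood, all tested, 9 were downregulated with DESeq2 (against 5.92% of all genes) and 7 each with edgeR and limma-voom. None was upregulated with any of these, 4 were higher at an unadjusted P under 0.05, and the median log2 fold change was -0.42. Lmo2, a partner in the stem cell and erythroid complex, fell from 1437 ± 226 to 888 ± 87.9 normalised counts (log2 fold change -0.69, adjusted P = 1.74e-05). Cebpe, which drives granulocyte maturation, fell by 1.05 (adjusted P = 1.39e-04), Nfe2, of megakaryocytes and erythroid cells, by 0.81 (adjusted P = 1.56e-04) and Gata1, the erythroid factor, by 0.94 (adjusted P = 1.87e-04). Among the Hox genes known from blood, Hoxa9 and Hoxa10 were called higher, and Hoxb4 was at -0.22 and not called.

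Trithorax proteins keep Hox clusters active and Polycomb proteins keep them silent. Of 38 trithorax and Polycomb genes tested, 0 were called in either direction with DESeq2, edgeR or limma-voom. With DESeq2, 7.75% of all genes tested were called higher and 5.92% lower. The median log2 fold change of the 38 was -0.08, and at an unadjusted P under 0.05 there were 8 higher and 6 lower. Of 16 genes that induce Hox expression in the embryo or act in the retinoic acid pathway, 9 were tested. With DESeq2, 2 of these were called higher and 1 lower, and 8 had a log2 fold change above 0. Cdx1, Cdx2 and Cdx4 had 0 counts in every library. In the retinoic acid pathway, Crabp2, which carries retinoic acid to its receptors, rose from 4.38 ± 2.49 to 32.6 ± 14.9 normalised counts (log2 fold change 2.91, adjusted P = 9.67e-06). Every DMM library was above every naïve library for Crabp2. Without DMM replicate 2 or without DMM replicate 3, 0 genes of this list were called higher. Those fits gave an adjusted P to 15653 and 15659 genes, against 17760 with all libraries. Whether Crabp2 was among them was not examined. Cyp26b1, which degrades retinoic acid, rose by 0.77 (adjusted P = 0.0445) and Aldh1a1, which makes it, fell by 0.71 (adjusted P = 0.0281), and neither was called with edgeR or limma-voom. Aldh1a3, of the same gene family as Aldh1a1, was at 0.62 and not called (adjusted P = 0.118). Rarg at 0.52 (adjusted P = 0.00258) and Rxra at 0.54 (adjusted P = 5.69e-07) stayed under the 1.5-fold threshold. Aldh1a3, Rarg and Rxra were singled out after their values were seen.

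Markers of several cell types moved with the groups in which the 6 Hox genes rose. Beside the calls in each marker list, 7.75% of all genes tested were called higher and 5.92% lower. The 12 chondrocyte markers held 0.298 to 0.434% of counts in naïve and 0.692 to 1.32% in DMM libraries, and 5 of 11 tested were called higher. The 12 osteoblast and osteocyte markers held 0.919 to 1.32% and 2.60 to 3.199% (9 of 11 called higher), and the 11 synovial fibroblast markers 0.848 to 1.36% and 1.81 to 2.65% (6 of 11 called higher). The most abundant gene of the chondrocyte list was Col2a1 (23979 to 63821 mean normalised counts), with Comp next (8288 to 21121). Of its 11 tested genes, 9 had a log2 fold change above 0 and 2 below it, Col9a1 (-0.36) and Matn3 (-0.29). The sparse Matn1, which had no adjusted P, was lower in every DMM library. The osteoblast and osteocyte list was dominated by Col1a1 (137561 to 323535 mean normalised counts), with Ibsp next (8953 to 24145). The synovial list was dominated by 3 genes: Col1a2 and Col3a1, collagens that bone cells also make, were called higher (84016 to 196037 and 16703 to 67661 mean normalised counts), and Prg4, the lubricin gene, was not called (55406 to 38199). The neutrophil lineage markers held 0.949 to 1.33% and 0.448 to 0.941%, with 14 of 15 called lower, and the erythroid markers 1.09 to 1.82% and 0.603 to 1.27%, with 10 of 11 called lower. The chondrocyte, osteoblast, synovial and neutrophil shares did not overlap between groups (exact permutation test over 70 assignments, two-sided P = 0.0286, adjusted P = 0.0686 over 12 lists, where 0.0286 is the smallest P the design allows). Erythroid shares overlapped (exact permutation test, two-sided P = 0.0857).

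Endothelial markers, of which 4 of 10 were called higher and 1 lower, held 0.0474 to 0.0537% in naïve and 0.0563 to 0.0637% in DMM libraries, without overlap (exact permutation test, two-sided P = 0.0286). The 12 markers of haematopoietic progenitors, the blood cells with the highest known Hox levels, held 0.0353 to 0.0410% and 0.0362 to 0.0405% and overlapped (exact permutation test, two-sided P = 0.829), with 1 called lower. The B cell, osteoclast, macrophage, skeletal muscle and adipocyte shares overlapped too (exact permutation test, two-sided P = 0.0857 to 0.514), with 0 of 12, 1 of 9, 0 of 10, 2 of 6 and 0 of 8 called higher and 2 macrophage markers called lower. No marker of any list was at 0 in all libraries. The part of these cell types in the Hox results was not tested.

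**Figure D5:**
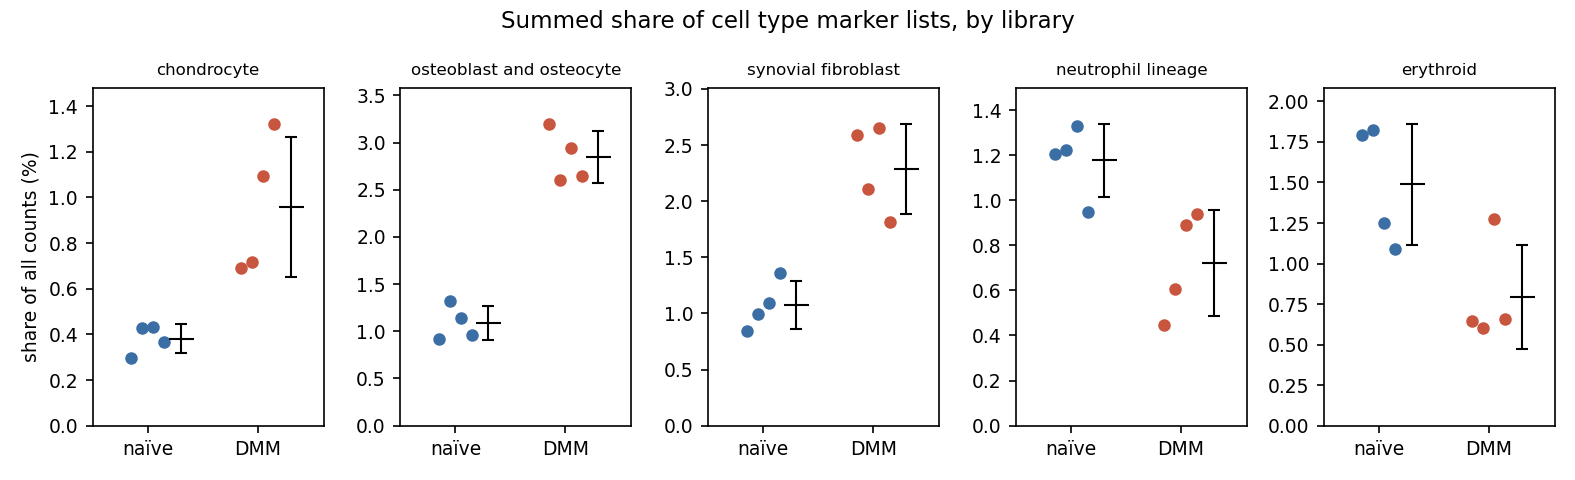
Summed share of all counts, in percent (y axis, each starting at 0), held by 5 cell type marker lists in 4 naïve (blue) and 4 DMM (red) libraries, with the mean ± SD in black. The chondrocyte, osteoblast and osteocyte, and synovial fibroblast lists are higher in every DMM library, the neutrophil list is lower in every DMM library, and the erythroid share of 1 DMM library (1.27%) lies among the naïve values.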

How the data were processed

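RNA from medial knee cartilage of 4 naïve and 4 DMM mice was sequenced, 1 library per mouse. The deposited table holds estimated counts per gene, which the authors made with Trimmomatic (read trimming), Kallisto (pseudo-alignment) and tximport (sums per gene). Of the values, 39.2% were not whole, because Kallisto divides a read between the transcripts it fits. Estimated counts were rounded, and length offsets were not used. The methods of the study name GRCm38 with an Ensembl release built on GRCm39, and the labels name GRCh38, so the build used for counting was not settled. The labels and the methods name different library kits, and neither states whether strand was used. Coordinates are from GENCODE vM21 on GRCm38, looked up by gene identifier.

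Totals of 12479443 to 16548002 counts per library limit what can be seen of the sparse members. DMM was compared with naïve with the Wald test of DESeq2 1.42.0 in R 4.3.3, the test the study used, over all genes, with Benjamini-Hochberg adjustment, default filters, unshrunken fold changes and no covariates. Normalised counts are counts divided by DESeq2 size factors. Calls needed an adjusted P of 0.05 or less and 1.5-fold. Marker shares were compared with two-sided exact permutation tests. Alternatives were edgeR 4.0.16 (quasi-likelihood), limma 3.58.1 (voom), size factors from TMM or from total counts, a minimum of 10 counts in 4 libraries, no independent or Cook's filter, no fold threshold, the replicate number as a block, and leaving out each library. The DESeq2 and edgeR fits were also run on simulated data. There edgeR at first recovered fewer changed genes than required, all in the right direction, and the simulation was then limited to more abundant genes with a lower requirement, so it is not used as support.

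The members were set by symbol alone, but this gene family and the lists were chosen with earlier results of these data known. Values per library were given for called members and the 3 members with the highest mean in each cluster, and up to 4 called genes with the smallest adjusted P were named from each companion list. Exceptions are named in the text. Words of 31 bases shared between transcripts were counted on both strands. Some genes are not reported here.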

Additional observations from a re-analysis of the deposited data

Results flagged for a closer look

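Over 82 groups of 4 libraries (each tested Hox gene, the summed level of each cluster and of all Hox genes, and each marker list, in naïve and in DMM), 5 had a library far from the other 3 by Dixon's criterion of 0.829, and chance alone would give about 4.1. Hoxa11 was at 67.7 normalised counts in DMM replicate 2 and at 34.6 to 37.3 in the other DMM libraries. Hoxb5 was at 22.7 normalised counts in naïve replicate 4 and at 6.16 to 6.65 in the other naïve libraries. The erythroid markers held 1.27% of counts in DMM replicate 3 and 0.603 to 0.658% in the other DMM libraries. The macrophage markers held 0.173% in naïve replicate 4 and 0.199 to 0.202% in the other naïve libraries. The skeletal muscle markers held 0.0121% in DMM replicate 1 and 0.00191 to 0.00234% in the other DMM libraries.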

How the results depend on the processing

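Hoxa10, Hoxc10 and Hoxd8 were called higher in every alternative run. The number of Hox genes called higher was 6 and ranged from 4 with edgeR to 9 with the total count as size factor, and from 3 to 7 when 1 library was left out. The number called lower was 0, and 0 to 1 when 1 library was left out. Among the log2 fold changes of the tested members under these alternatives, 283 kept direction and side of the threshold, 22 lost the call, 9 gained it and 2 turned direction, both for Hoxb3 (-0.54 to 0.22 when 1 library was left out, above 0 without naïve replicate 3 or DMM replicate 3). For all values here that moved, the cause was not tested. With the total count as size factor, 489 genes were called lower over the table, 2 blood factors higher and 5 lower, 1 trithorax or Polycomb gene higher, 4 inducers higher and 0 lower, and 1 neighbour higher. Without the threshold on fold, calls numbered 4010 over the table and 1989 lower, with 2 blood factors higher, 3 trithorax or Polycomb genes higher and 5 lower, and 4 inducers higher. With edgeR, limma-voom or no independent filter, 1 inducer was higher and 0 lower, and with edgeR, limma-voom or a minimum of 10 counts in 4 libraries 1 neighbour was higher. Leaving out 1 library gave 0 to 1 TALE cofactors higher, 0 to 1 limb factors lower, 0 to 1 blood factors higher, 0 to 1 trithorax or Polycomb genes lower, 0 to 4 inducers higher and 0 to 1 lower, and 1 to 2 neighbours lower. Same-numbered naïve and DMM mice did not deviate together (correlations of 0.05, 0.06, -0.12 and 0.12 over 18403 genes), so the numbers were not taken as pairs. With a replicate block, 5 Hox genes were called higher (all but Hoxa9) and 0 lower, 2081 genes over the table, 0 TALE cofactors and 0 inducers higher and 2 neighbours lower. DESeq2's independent filter gave the 15 sparse members no adjusted P. Without it all 39 members were tested and 4 were called higher, and with edgeR or limma-voom 28 were tested.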
